A study of Mus musculus with 8 samples.

Results

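The endothelial markers and the vascular endothelial growth factor (VEGF) ligands and receptors of brown adipose tissue (BAT) were examined as 10 genes chosen by name out of the 31053 listed in the count table. They were the ligands Vegfa and Vegfb, the VEGF receptors Flt1 and Kdr, the TIE receptors Tie1 and Tek, the junction genes Pecam1 and Cdh5, and the secreted products Egfl7 and Vwf. Bulk RNA-seq had been performed on BAT of 4 WT and 4 ATGLKO mice of the C57BL6/J strain, which addresses how the loss of fat mobilisation in brown adipocytes changes the tissue. ATGLKO mice, which the study calls Ucp1Δ/Δ, carry a floxed Pnpla2, the gene of the lipase ATGL, that is deleted by a Cre recombinase under the Ucp1 promoter. That promoter is active in thermogenic adipocytes, so the endothelial cells of these mice are not the cells in which the gene was targeted. Whether WT mice carried the floxed allele or Cre was not stated in the sources used here. The labels give all mice as 10 weeks old. The study's legend gives another age, and the labels name the stromal vascular fraction beside the tissue. The adipocyte genes Adipoq, with a mean of 1087 CPM in WT mice and 615 CPM in ATGLKO mice, and Ucp1, with means of 2719 and 2152 CPM, were high in all libraries, as in whole BAT and not as in a fraction freed of adipocytes. CPM is the count scaled to library size after adjustment by the trimmed mean of M values (TMM).

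BAT is densely supplied with capillaries, which bring oxygen and fuel to the adipocytes and carry heat away. VEGF-A, released by adipocytes and other cells, binds VEGFR2 on the endothelium and drives the survival and growth of vessels, while VEGFR1 binds VEGF-A and VEGF-B with little signalling of its own. The TIE receptors and their angiopoietin ligands keep vessels quiescent and tight, and the adhesion molecules of the junctions hold the endothelial sheet together.

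Total counts ranged from 2017697 to 3115956 per mouse, and 3 counts corresponded to between 0.933 and 1.53 CPM, a floor that covers counting error only. Mitochondrially encoded genes took between 38.4% and 45.6% of the counts. Genes with enough counts, 8930 in all, were compared between genotypes with the quasi-likelihood F test of edgeR, with p adjusted by Benjamini-Hochberg over all 8930. At an adjusted p under 0.05, 1872 of them (21%) differed, 1191 (13.3%) being higher and 681 (7.63%) lower in ATGLKO mice. The median log2 fold change (log2FC) of all genes tested was -0.0087. Scaling by total counts alone moved that median to 0.13, with 1478 genes higher and 404 lower. The targeted gene Pnpla2 fell from 2913 ± 191 CPM (SD, n = 4) in WT mice to 474 ± 59.2 CPM (SD, n = 4) in ATGLKO mice, a log2FC of -2.62, in the direction that the labels of all 8 libraries give. Skeletal muscle markers varied widely within both genotypes, from 22.4 to 1569 CPM as the sum of 10 markers in WT mice and from 69.8 to 2158 CPM in ATGLKO mice. WT replicates 1 and 4 and ATGLKO replicates 2 and 4 were the richest in them.

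Of the 10 genes, 9 passed the filter on low counts, and Tie1 alone was higher in ATGLKO mice, against 13.3% of all genes tested. None was lower, against 7.63%. With edgeR, 3 were higher and 0 lower at an unadjusted p under 0.05, against 1630 higher and 1281 lower of all 8930 genes tested. The Wald test of DESeq2 gave 1 higher and 0 lower after adjustment of p. The log2FC was positive for 7 and negative for 2 of the 9, with a median of 0.25, against 49.3% positive over all genes tested. In 3 genes, Tie1, Pecam1 and Cdh5, every ATGLKO mouse lay above every WT mouse, which was so for 14.4% of all genes tested. In bulk tissue, more or fewer cells of a type and more or less RNA per cell cannot be told apart.

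**Figure D1:**
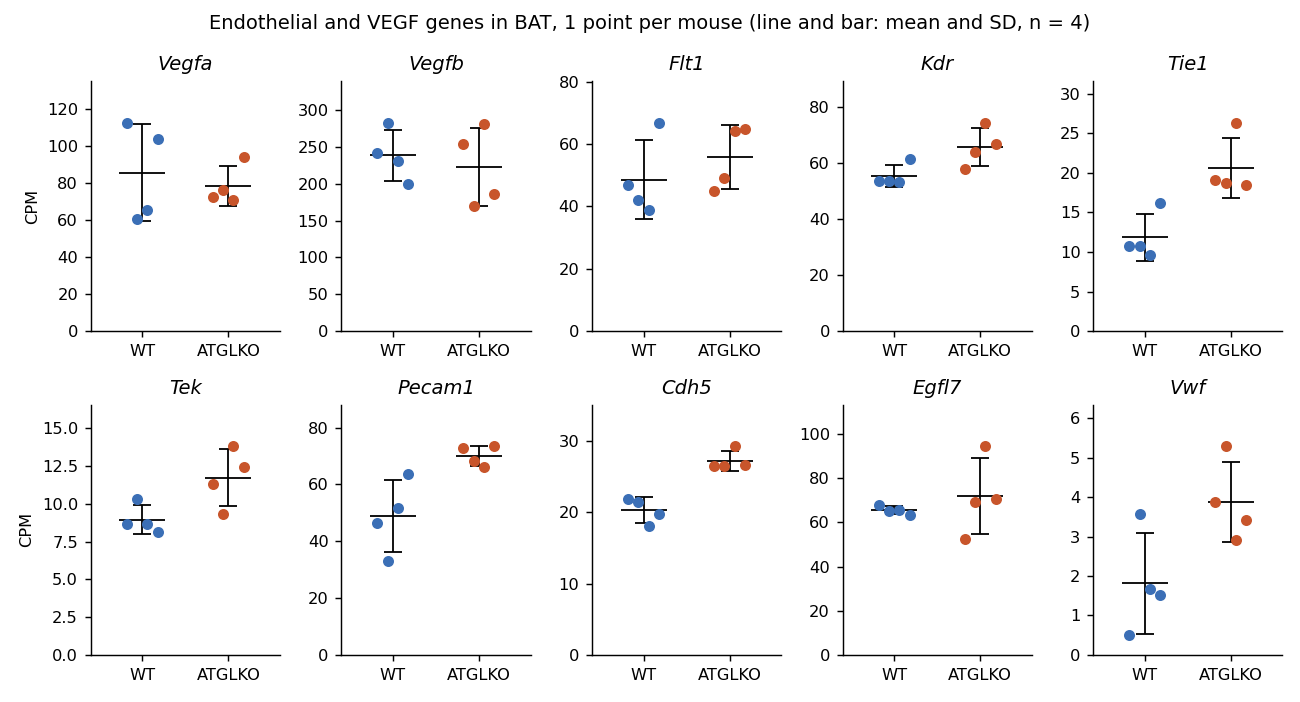
Level of each of the 10 genes in CPM (vertical axis, from 0) in the 4 WT and 4 ATGLKO mice, with 1 point per mouse and the mean and SD in black. The ATGLKO mice lie above all WT mice for Tie1, Pecam1 and Cdh5, and the genotypes overlap for the other 7 genes.

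The VEGF ligands did not pass the test. Vegfa (ENSMUSG00000023951, minus strand, chr17:46016993-46032369 of mm10), the main ligand for vessel growth, had 113, 60.5, 65.8 and 104 CPM in WT replicates 1 to 4 and 72.5, 76.2, 71.0 and 94.0 CPM in ATGLKO replicates 1 to 4. All ATGLKO mice lay within the range of the WT mice. Its level averaged 85.7 ± 26.4 CPM (SD, n = 4) in WT mice and 78.5 ± 10.6 CPM (SD, n = 4) in ATGLKO mice. The log2FC was -0.12 (standard error 0.21, 95% confidence interval -0.57 to 0.33, edgeR adjusted p = 0.74), an interval that holds changes of either sign. Vegfb (ENSMUSG00000024962, minus strand, chr19:6982473-6987651), a ligand of VEGFR1 found in oxidative tissues, had 242, 283, 231 and 199 CPM in WT mice and 254, 170, 281 and 186 CPM in ATGLKO mice. The genotypes overlapped across most of their range. Its log2FC was -0.10 (standard error 0.19, interval -0.51 to 0.31, edgeR adjusted p = 0.77). With scaling by total counts alone the signs of both ligands turned, to 0.013 for Vegfa and 0.034 for Vegfb.

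Both ligands are also expressed in skeletal muscle, whose markers differed between mice. Among WT mice, Vegfa was at 113 and 104 CPM in replicates 1 and 4, where the muscle markers summed to 1569 and 741 CPM, and at 60.5 and 65.8 CPM in replicates 2 and 3, where they summed to 110 and 22.4 CPM. Among ATGLKO mice, Vegfa was at 76.2 and 94.0 CPM in the muscle-rich replicates 2 and 4 and at 72.5 and 71.0 CPM in replicates 1 and 3. The difference between muscle-rich and other mice was thus smaller than among WT mice. Among ATGLKO mice, Vegfb was at 170 and 186 CPM in replicates 2 and 4, where the markers summed to 2158 and 955 CPM, and at 254 and 281 CPM in replicates 1 and 3, where they summed to 348 and 69.8 CPM. Among WT mice Vegfb did not follow this order, with 242 and 199 CPM in the muscle-rich replicates 1 and 4 and 283 and 231 CPM in replicates 2 and 3. Without the 4 libraries richest in these markers, an alternative chosen after seeing the data, the log2FC was 0.20 for Vegfa and 0.073 for Vegfb, each with the sign turned and neither called. The part of muscle in these values was not tested. The count of Vegfa over that of Vegfb ran from 0.214 to 0.522 in WT mice and from 0.253 to 0.505 in ATGLKO mice.

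**Figure D2:**
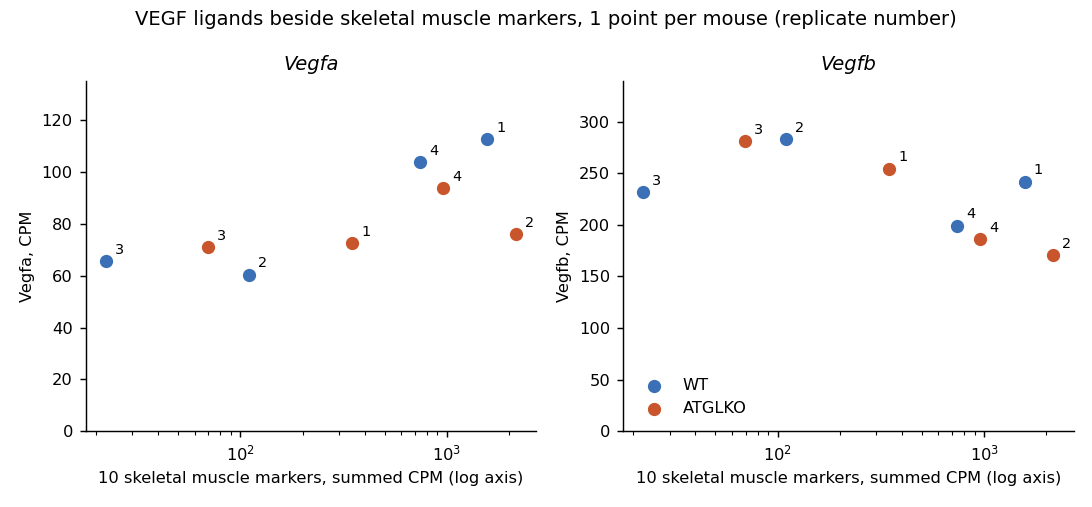
Vegfa (left) and Vegfb (right) in CPM, on vertical axes from 0, against the summed CPM of 10 skeletal muscle markers on a log axis, with 1 point per mouse, coloured by genotype and numbered by replicate. WT replicates 1 and 4, with 1569 and 741 CPM of muscle markers, hold the highest Vegfa levels, and ATGLKO replicates 2 and 4 the lowest Vegfb levels, while Vegfb in WT replicate 1, at 242 CPM, lies above that of WT replicate 3, at 231 CPM.

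The VEGF receptors did not pass the test either. Kdr (ENSMUSG00000062960, minus strand, chr5:75932827-75978458) encodes VEGFR2, the main signalling receptor for VEGF-A. It had 53.5, 53.8, 53.1 and 61.3 CPM in WT mice and 58.0, 63.8, 74.4 and 67.0 CPM in ATGLKO mice, 3 of which lay above the highest WT mouse. Its log2FC was 0.25 (standard error 0.16, interval -0.089 to 0.58, edgeR adjusted p = 0.30). Flt1 (ENSMUSG00000029648, minus strand, chr5:147561604-147726011) encodes VEGFR1, whose soluble form acts as a trap for the ligand. It had 46.9, 42.1, 38.7 and 66.9 CPM in WT mice and 44.9, 49.2, 64.4 and 64.8 CPM in ATGLKO mice, with WT replicate 4 the highest of all 8. The log2FC of Flt1 was 0.20 (standard error 0.20, interval -0.23 to 0.63, edgeR adjusted p = 0.54). The count of Kdr over that of Flt1 overlapped between genotypes, from 0.917 to 1.37 in WT mice and from 1.03 to 1.30 in ATGLKO mice.

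Tie1 was the gene of the 10 that passed the test. Tie1 (ENSMUSG00000033191, minus strand, chr4:118471191-118490061) encodes an endothelial receptor without a ligand of high affinity that pairs with TIE2 and tunes its signal. It had 10.7, 10.8, 9.68 and 16.2 CPM in WT mice, from counts of 21, 24, 29 and 32, and 19.1, 18.7, 26.3 and 18.5 CPM in ATGLKO mice, from counts of 54, 60, 63 and 43. The lowest ATGLKO mouse stood above the highest WT mouse, replicate 4. The mean of Tie1 rose from 11.8 ± 2.96 CPM (SD, n = 4) in WT mice to 20.6 ± 3.80 CPM (SD, n = 4) in ATGLKO mice, with a log2FC of 0.81 (standard error 0.23, interval 0.31 to 1.30, edgeR adjusted p = 0.021), or 1.75-fold. The call was lost without WT replicate 1 (adjusted p = 0.058), without WT replicate 3 (adjusted p = 0.081) and without ATGLKO replicate 3 (adjusted p = 0.069). Tek (ENSMUSG00000006386, plus strand, chr4:94739289-94874976), which encodes TIE2, the angiopoietin receptor, had 8.67, 10.3, 8.68 and 8.11 CPM in WT mice and 11.3, 9.33, 13.8 and 12.4 CPM in ATGLKO mice. ATGLKO replicate 2 fell among the WT mice and the other 3 lay above them. The log2FC of Tek was 0.38 (standard error 0.24, interval -0.13 to 0.89, edgeR adjusted p = 0.30), from counts of 16 to 33 per mouse. The count of Tie1 over that of Tek was 1.24, 1.04, 1.12 and 2 in WT mice and 1.69, 2, 1.91 and 1.48 in ATGLKO mice, and whether Tie1 and Tek differed in their change was not tested.

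The promoters of the 4 receptor genes are shown because they let Tie1, which was called, be set beside its partner Tek and the VEGF receptors, which were not. RefSeq promoters of build GRCm38.p6, from 250 bases before to 50 bases after the annotated start, were found for 7 of the 10 genes and not for Pecam1, Cdh5 and Vwf. Each is written 5′ to 3′ on the strand of its gene, and capitals mark GGAA, the core bound by ETS factors such as those of the endothelium, or TTCC, the same core on the other strand. The windows are chr4:118489800-118490099 on the minus strand for Tie1, chr4:94739039-94739338 on the plus strand for Tek, chr5:75978406-75978705 on the minus strand for Kdr and chr5:147725962-147726261 on the minus strand for Flt1. The annotated Tie1 gene begins further upstream, at 118490061, so most of its window lies within the gene. The windows of Tek, Kdr and Flt1 lie mostly before their annotated genes, so the 4 are not alike in position.
Tie1: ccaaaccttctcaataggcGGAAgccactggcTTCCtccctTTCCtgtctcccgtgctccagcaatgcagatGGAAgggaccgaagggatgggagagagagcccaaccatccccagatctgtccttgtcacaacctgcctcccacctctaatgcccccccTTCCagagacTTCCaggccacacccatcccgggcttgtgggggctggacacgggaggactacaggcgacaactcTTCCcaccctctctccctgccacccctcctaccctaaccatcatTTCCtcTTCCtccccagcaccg
Tek: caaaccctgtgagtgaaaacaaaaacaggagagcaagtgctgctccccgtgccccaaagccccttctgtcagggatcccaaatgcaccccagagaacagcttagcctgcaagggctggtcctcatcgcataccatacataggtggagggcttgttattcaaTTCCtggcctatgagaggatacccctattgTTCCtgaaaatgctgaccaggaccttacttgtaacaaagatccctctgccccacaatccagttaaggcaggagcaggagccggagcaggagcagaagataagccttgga
Kdr: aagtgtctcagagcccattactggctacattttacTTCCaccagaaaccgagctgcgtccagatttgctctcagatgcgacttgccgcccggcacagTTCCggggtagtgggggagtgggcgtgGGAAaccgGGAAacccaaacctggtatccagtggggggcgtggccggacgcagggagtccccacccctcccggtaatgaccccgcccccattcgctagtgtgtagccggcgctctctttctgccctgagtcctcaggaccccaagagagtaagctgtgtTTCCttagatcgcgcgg
Flt1: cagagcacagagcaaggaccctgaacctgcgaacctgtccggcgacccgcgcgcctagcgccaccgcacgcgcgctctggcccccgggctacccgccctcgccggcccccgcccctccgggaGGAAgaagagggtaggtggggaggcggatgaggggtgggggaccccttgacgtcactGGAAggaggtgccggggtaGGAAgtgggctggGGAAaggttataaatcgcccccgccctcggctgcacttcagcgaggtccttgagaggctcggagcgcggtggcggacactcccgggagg

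The Tie1 window held 9 such cores, and 1.59% of the 32851 promoters of the same length held as many or more. The Tek window held 2, which 84.6% of promoters reached, the Kdr window 5 (28.6%) and the Flt1 window 4 (46.3%). The windows not shown, all of genes without a call, held 6 and 3 cores in Vegfa, 5, 4 and 1 in Egfl7 and 2 in Vegfb. Whether the number of cores bears on the call of Tie1 was not tested. At least 1 core was present in 96.0% of all promoters, with a median of 3, so its presence alone sets almost no gene apart. The promoters differed in base composition too. GC content was 52.0% in Tek, 60.3% in Tie1, 60.7% in Kdr and 70.7% in Flt1, against a median of 52.7% over all promoters, and the Flt1 window held 29 CpG against 3 in that of Tek. A match of these letters is a description of the sequence, not a bound site.

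The junction genes were higher in every ATGLKO mouse but did not pass the test. Pecam1 (ENSMUSG00000020717, minus strand, chr11:106654217-106750628) encodes CD31, an adhesion molecule of endothelial junctions that leukocytes and platelets carry as well. It had 46.4, 33.2, 51.8 and 63.8 CPM in WT mice and 72.9, 68.1, 66.0 and 73.4 CPM in ATGLKO mice, a wide spread in the former and a narrow spread in the latter. The mean was 48.8 ± 12.7 CPM (SD, n = 4) against 70.1 ± 3.61 CPM (SD, n = 4), which gives a log2FC of 0.52 (standard error 0.19, interval 0.12 to 0.93, edgeR adjusted p = 0.065). It was called without WT replicate 4 (adjusted p = 0.018), with voom (adjusted p = 0.031), with scaling by total counts alone (adjusted p = 0.023) and with at least 10 counts required in every mouse (adjusted p = 0.045). Cdh5 (ENSMUSG00000031871, plus strand, chr8:104101625-104144511) encodes VE-cadherin, the adherens junction protein restricted largely to endothelium. It had 21.9, 21.5, 18.0 and 19.8 CPM in WT mice and 26.5, 26.4, 29.3 and 26.6 CPM in ATGLKO mice. The 2 sets were tight and apart, with coefficients of variation of 8.78% and 5.0%. The log2FC of Cdh5 was 0.43 (standard error 0.18, interval 0.044 to 0.81, edgeR adjusted p = 0.11), or 1.34-fold, and it was called only under total-count scaling among the 8 alternatives that kept all mice (adjusted p = 0.036).

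The secreted products gave less certain values. Egfl7 (ENSMUSG00000026921, plus strand, chr2:26580014-26593120) encodes a matrix protein that endothelial cells secrete, and its locus hosts the microRNA gene Mir126a. It had 67.8, 65.4, 65.5 and 63.3 CPM in WT mice and 52.7, 69.4, 94.4 and 70.8 CPM in ATGLKO mice, so that WT mice differed little (coefficient of variation 2.80%) and ATGLKO mice spread to both sides of them (23.9%). Its log2FC was 0.13 (standard error 0.18, interval -0.26 to 0.52, edgeR adjusted p = 0.67), and -0.016 without ATGLKO replicate 3. The exons of Egfl7 share 64 bases with those of Agpat2 on the opposite strand, which fell in ATGLKO mice (log2FC -2.19), and the strand setting of the counting was not given in the sources used here, so reads from that stretch cannot be told apart. They share 264 bases with Gm20532, which had 0 counts. No other gene of the 10 had exons overlapping those of another gene. Vwf (ENSMUSG00000001930, plus strand, chr6:125546774-125686679), which encodes the clotting factor stored by the endothelium of larger vessels and by megakaryocytes, had 1, 8, 5 and 3 counts in WT mice and 11, 17, 7 and 8 in ATGLKO mice. These are levels of 0.510, 3.58, 1.67 and 1.52 CPM and of 3.89, 5.29, 2.93 and 3.43 CPM, near the floor, and the highest WT mouse overlapped the ATGLKO mice. Vwf was too low to enter the main test. A two-sided exact permutation test of its mean log2 CPM gave p = 0.086 (n = 4 and 4), where 0.0286 is the smallest p that this design allows. When genes with a count in any mouse were kept, its log2FC was 1.04 (edgeR adjusted p = 0.19).

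**Figure D3:**
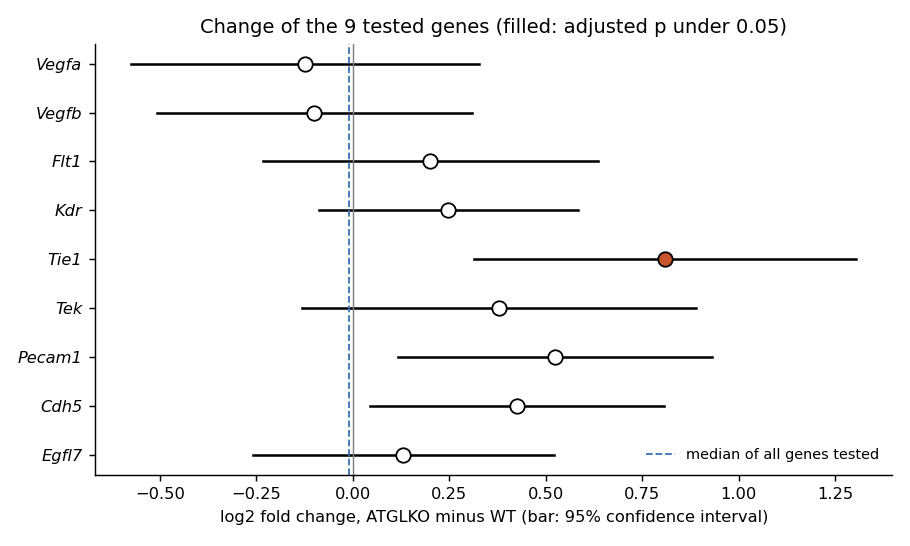
Log2 fold change of ATGLKO over WT mice (horizontal axis) for the 9 tested genes, with 95% confidence intervals as bars, and filled points where the adjusted p was under 0.05. Tie1, at 0.81, is the filled point, the intervals of Tie1, Pecam1 and Cdh5 lie above 0, and the dashed line marks the median of all genes tested, -0.0087.

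No mouse led in all genes. ATGLKO replicate 3 was the highest ATGLKO mouse for 6 of the 10 genes and the lowest for 3. WT replicate 4 was the highest WT mouse for 4 of them, Pecam1, Tie1, Kdr and Flt1, and the lowest for 3. WT replicate 3 was the highest for 0 and the lowest for 4.

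The wider vascular program was read from 11 lists with 152 further genes, of which 103 were tested, 28 were higher and 4 lower, with a median log2FC of 0.37. The 13.3% and 7.63% of all genes tested that were higher and lower stand beside these counts. Beside the counts of the lists at an unadjusted p under 0.05 stand 1630 higher and 1281 lower of all 8930 genes tested. Among the other VEGF family genes, Nrp1, the co-receptor that presents VEGF-A to VEGFR2, had 155, 138, 145 and 124 CPM in WT mice and 259, 248, 247 and 310 CPM in ATGLKO mice. It rose without overlap, with a log2FC of 0.92 (standard error 0.16, edgeR adjusted p = 0.00065). Nrp2 had a log2FC of -0.26 (edgeR adjusted p = 0.48). The ligands Vegfc, Vegfd and Pgf and the lymphatic receptor Flt4 were too low to test, with 11, 43, 8 and 48 counts over all mice. Of the angiopoietin and TIE genes, Ptprb, the endothelial phosphatase that acts on TIE2, averaged 48.9 ± 11.2 CPM (SD, n = 4) in WT mice and rose to 84.2 ± 14.3 CPM (SD, n = 4) in ATGLKO mice, with a log2FC of 0.78 (edgeR adjusted p = 0.010). Angpt1, the activating ligand of TIE2, had a log2FC of 0.38 (edgeR adjusted p = 0.49), and Angpt2 and Angpt4 were too low to test, with 21 counts and 1 count over all mice.

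Of 22 tested genes downstream of VEGF receptors, 3 were higher and 0 lower (5 and 0 at an unadjusted p under 0.05), with a median log2FC of 0.24. The 3 were Prkcb, a protein kinase C (log2FC 2.20), Fyn, a Src family kinase (1.33), and Hspb1, a small heat shock protein (1.22). Prkcb and Fyn are also expressed by leukocytes. Among 20 tested general endothelial genes outside the 10, 6 were higher and 0 lower (8 and 0 at an unadjusted p under 0.05), 18 had a positive log2FC, and the median was 0.51. Cavin2, a caveolar coat protein, averaged 199 ± 42.5 CPM (SD, n = 4) in WT mice and rose to 477 ± 45.9 CPM (SD, n = 4) in ATGLKO mice, with a log2FC of 1.26 (edgeR adjusted p = 0.00011). Cd34, a sialomucin of capillary endothelium that stromal progenitors carry as well, had a log2FC of 1.31, and Fli1, an ETS factor of endothelial and blood cells, one of 0.98. Cavin2 is expressed by adipocytes as well.

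Capillary genes of fat held 2 calls, and both depended on single mice. Gpihbp1, which carries lipoprotein lipase to the capillary lumen, had 67.8, 67.2, 73.8 and 80.5 CPM in WT mice and 121, 89.9, 115 and 101 CPM in ATGLKO mice. It rose by a log2FC of 0.56 (edgeR adjusted p = 0.023), and the call was lost without WT replicate 1, WT replicate 3, ATGLKO replicate 1 or ATGLKO replicate 3 (adjusted p up to 0.075). Plvap, the diaphragm protein of fenestrae, had a log2FC of 1.15 (edgeR adjusted p = 0.024) from a mean of 3.52 CPM in WT mice, and was called in 2 of the 8 fits that left out a mouse, those without WT replicate 2 or ATGLKO replicate 4. Of the 8 genes tested in this list, 2 were higher and 0 lower (4 and 1 at an unadjusted p under 0.05).

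Among genes of arteries, veins and lymphatics, 4 of 14 were tested and Pdpn (log2FC 2.27) and Lyve1 (1.18) were higher. Both are lymphatic markers that stromal cells or macrophages also express, and whether lymphatic vessels had a part in these values was not tested. The other lymphatic genes were too low to test. Mmrn1 had 0, 1, 1 and 0 counts in WT mice and 5, 5, 3 and 2 in ATGLKO mice, with no overlap, and the receptor gene Flt4 had 5, 1, 1 and 6 against 11, 6, 6 and 12. Prox1, Reln and Ccl21a had 18, 17 and 0 counts over all mice. Lyve1 lost its call without WT replicate 3, ATGLKO replicate 1 or ATGLKO replicate 2 (adjusted p up to 0.11). The tip cell marker Esm1 had 0 counts. Of 4 tested sprouting and Notch genes, Hes1, a Notch target, and Pdgfb, the endothelial factor that recruits pericytes, were higher, with log2FC of 1.29 and 1.09. Hes1 lost its call without WT replicate 1, WT replicate 2 or ATGLKO replicate 3 (adjusted p up to 0.084). Vcam1, an adhesion molecule for leukocytes, was the tested gene of the activation list and rose by a log2FC of 1.94.

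Of 12 tested genes of mural cells, the pericytes and smooth muscle around vessels, 2 were higher and 0 lower (5 and 0 at an unadjusted p under 0.05). Acta2 had a log2FC of 1.86 and Pdgfrb one of 1.07, both of which fibroblasts also express, and the pericyte gene Rgs5 one of 0.37 (edgeR adjusted p = 0.19). Pdgfrb was called without WT replicate 2 and without ATGLKO replicate 1, and lost its call in the other 6 fits that left out a mouse (adjusted p up to 0.11). Of 10 tested angiogenic factors and inhibitors, 6 were higher and 0 lower (7 and 0 at an unadjusted p under 0.05), with a median log2FC of 1.19. The 3 with the smallest adjusted p, Serpinf1 (log2FC 1.69), Thbs1 (2.86) and Col18a1 (1.74), encode PEDF, thrombospondin-1 and the collagen that endostatin is cut from, known as inhibitors of angiogenesis. The other 3 were Adamts1 and Adamts9, matrix proteases with antiangiogenic activity, and Cxcl12, a chemokine that promotes angiogenesis (log2FC 0.65, edgeR adjusted p = 0.028).

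Genes of hypoxia and VEGF control were read as a mixed list of regulators and hypoxia targets. Of 18 tested, 2 were higher and 4 lower, with a median log2FC of -0.034. Calls among the hypoxia targets went both ways, and the 2 higher genes were such targets. Ndrg1, a stress-induced gene, had 10.7 ± 2.51 CPM (SD, n = 4) in WT mice and 44.2 ± 7.06 CPM (SD, n = 4) in ATGLKO mice (log2FC 2.07). The other was Adm, the vasodilator adrenomedullin (log2FC 1.81). Egln3, an oxygen-sensing hydroxylase and target of HIF (-2.17), Esrra, the nuclear receptor that acts with PGC-1α on Vegfa (-1.38), and Pdk1, a pyruvate dehydrogenase kinase and target of HIF (-1.17), were the 3 lower genes with the smallest adjusted p. The log2FC was -0.026 for Hif1a (edgeR adjusted p = 0.94), 0.29 for Epas1 (edgeR adjusted p = 0.25) and 0.27 for Ppargc1a (edgeR adjusted p = 0.41). These are mRNA levels, and HIF proteins are controlled largely by their breakdown.

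**Figure D4:**
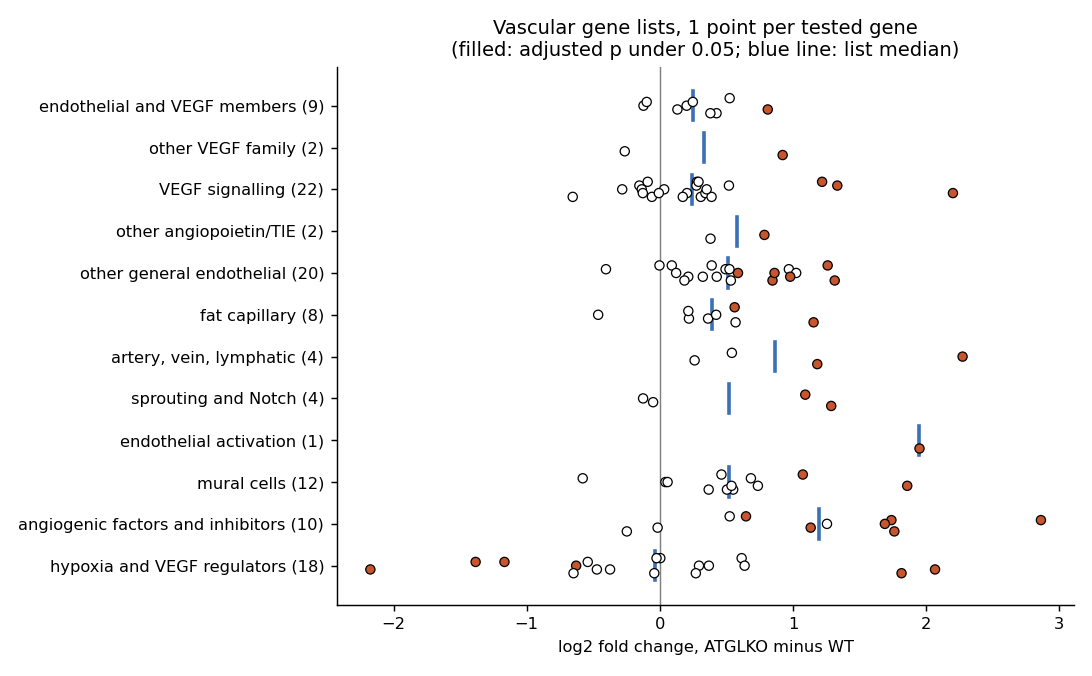
Log2 fold change of ATGLKO over WT mice (horizontal axis) for each tested gene of the 10 and of the 11 vascular lists, with the number tested in brackets, filled points at an adjusted p under 0.05 and the list median as a blue line. The median is 0.25 for the endothelial and VEGF genes, 0.51 for the other general endothelial genes and -0.034 for the hypoxia and VEGF regulators, the list that holds all 4 lower calls.

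Markers of other cells moved with the genotype. Over the 10 endothelial and VEGF genes the summed level was 544 to 611 CPM in WT mice and 557 to 723 CPM in ATGLKO mice, with overlap. The ligands Vegfa and Vegfb, which are not endothelial markers, made up much of this sum. Vegfb alone was at 199 to 283 CPM in WT mice and 170 to 281 CPM in ATGLKO mice. The summed level over the 27 other general endothelial genes was 454 to 705 CPM in WT mice and 912 to 1096 CPM in ATGLKO mice, with no overlap. Cavin2, which adipocytes also express, made up much of this sum. Without it, an alternative added after seeing the data, the other 26 genes summed to 287 to 445 CPM and 455 to 554 CPM, still with no overlap but with a narrow gap. These 26 still held Cd34, which stromal progenitors carry as well, at 13.2 to 19.3 CPM in WT mice and 30.5 to 52.6 CPM in ATGLKO mice. That rise is wider than the gap between 445 and 455 CPM. Between the mice at its edges, WT replicate 4 and ATGLKO replicate 1, Adgrl4 and Rasip1 rose by more than the gap too. The separation without Cavin2 would thus be lost without Cd34, Adgrl4 or Rasip1, each taken alone. The 10 macrophage markers summed to 102 to 157 CPM in WT mice and 1154 to 2058 CPM in ATGLKO mice, and 9 of the 9 tested were higher, with log2FC of 3.67 for Lyz2 and 5.61 for Lgals3. Trem2 was at 1 count over the WT mice. The 8 fibroblast markers summed to 326 to 445 CPM and 984 to 1805 CPM, and 7 of 8 were higher, among them Dcn (log2FC 1.27) and Col3a1 (2.74). The 8 adipocyte markers summed to 14366 to 22271 CPM and 10522 to 15009 CPM, with 1 higher and 4 lower, among them Cidea (log2FC -1.16), while Fabp4 had a log2FC of -0.39 (edgeR adjusted p = 0.13).

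Blood and muscle markers were not called, apart from Pf4. Of 6 platelet markers only Pf4, which macrophages also make, had enough counts to be tested (log2FC 2.95), and the defining platelet genes Itga2b, Gp9, Gp1bb and Gp1ba had 41, 4, 2 and 1 counts over all mice. Of 5 tested red blood cell markers 0 were called by edgeR (0 also at an unadjusted p under 0.05), with log2FC of -0.25 for Hbb-bs and 0.26 for Hba-a1, and sums of 3573 to 6988 CPM in WT mice and 2771 to 6772 CPM in ATGLKO mice. Of 9 tested muscle markers 0 were called by edgeR (0 also at an unadjusted p under 0.05), with log2FC of 0.40 for Myh4 and 0.53 for Acta1. None of the 6 lymphocyte markers was tested, with sums of at most 8.49 CPM, Nkg7 and Cd3e leading and Cd79a at 0. The part of macrophages, fibroblasts or platelets in the higher values of Pecam1, Tie1 and the vascular lists was not tested. Without the 4 libraries richest in muscle markers, Tie1 was still called (log2FC 1.16, edgeR adjusted p = 0.045) and the vascular lists held 19 higher and 2 lower genes.

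**Figure D5:**
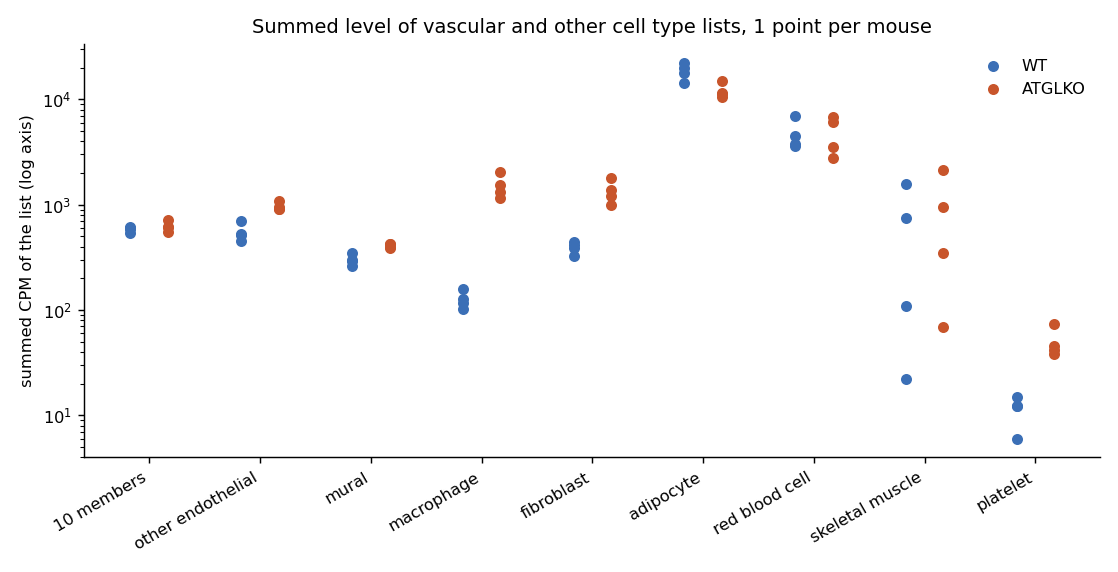
Summed level in CPM (log axis) of the 10 endothelial and VEGF genes and of 8 lists of vascular and other cell type genes, with 1 point per mouse and colour for genotype. The genotypes overlap for the 10 genes and for adipocyte, red blood cell and muscle markers. They do not for the macrophage list, at 102 to 157 CPM in WT mice and 1154 to 2058 CPM in ATGLKO mice. Nor do they overlap for the fibroblast, other endothelial, mural and platelet lists. The mural sums are 265 to 351 CPM in WT mice and 391 to 421 CPM in ATGLKO mice. The mural list holds Acta2 and Pdgfrb, which fibroblasts also express, and Pf4 leads the platelet list.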

How the data were processed

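BAT of 4 WT and 4 ATGLKO mice, different animals by their labels, was profiled by single-end bulk RNA-seq. The authors deposited whole-number counts per Ensembl gene without normalization, 1 column per mouse. They also deposited log2 values, each the log2 of the count over a factor per mouse, plus 1, used for 1 alternative. A sample attribute table was not used. The submitters' notes name Trimmomatic, HISAT2, DESeq2 and the builds GRCm38 and mm10, whereas the study's methods name bbduk, STAR, HTseq-counts and mm10; these cannot be told apart here, and the annotation release and strand setting were not given in the sources used here. Symbols and positions came from GENCODE annotation of mm10, with a symbol for 30934 of 31053 identifiers.

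Counts were analysed in R 4.3.3 with edgeR 4.0.16 (filterByExpr at its defaults, TMM, quasi-likelihood F test on genotype, Benjamini-Hochberg over 8930 genes), limma 3.58.1 and DESeq2 1.42.0. Log2 CPM used a prior count of 2. Standard errors and intervals came from the same edgeR fit. The genes and lists were chosen with earlier results of these data known, and lists are given as counts and medians with no test. Named were the 10 genes, Pnpla2, up to 3 higher and 3 lower genes of smallest adjusted p in each vascular list, and the 2 most expressed markers of each cell type. Others were named after their values were seen: Adipoq, Ucp1, Trem2, Cd79a, Esm1, Ccl21a, Prox1, Mmrn1, Reln, Flt4, Cxcl12, Adamts1, Adamts9, Vegfc, Vegfd, Pgf, Nrp2, Angpt1, Angpt2, Angpt4, Rgs5, Hif1a, Epas1, Ppargc1a, Agpat2, Gm20532, Gp9, Gp1bb and Gp1ba. The chi-square between mice of a genotype was 5.36 to 25.4 times that of counting alone, so none was counted as a duplicate. On counts simulated for this comparison over 8714 genes, 53.4% of genes changed by a log2FC of 1 and 99.0% of those changed by 2 were recovered, and 3.92% of calls were unchanged genes. Alternatives covered scaling, test, filter, threshold, prior count, replicate block and each mouse left out.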

Additional observations from a re-analysis of the deposited data

Results flagged for a closer look

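A mouse stood apart from the rest of its genotype for 6 of 100 sets of 4 values, where about 5 are due by chance. The measure given is the distance to the next mouse over the range of the genotype, both in log2 CPM. For Cdh5 in ATGLKO replicate 3 it was 0.939, at 4.91 against 4.77 to 4.78 in the others. For Tie1 in ATGLKO replicate 3 it was 0.903, at 4.76 against 4.27 to 4.32. In both genes this mouse was the highest of its genotype. For Kdr in WT replicate 4 it was 0.913, at 5.96 against 5.75 to 5.77. For Lyve1 in WT replicate 3 it was 0.910, at 1.65 against 2.68 to 2.78, for Egln3 in ATGLKO replicate 1 it was 0.845, at 0.60 against 1.76 to 1.97, and for Cd3e in WT replicate 1, which had 0 counts, it was 0.830, at -0.32 against 0.86 to 1.10. Without ATGLKO replicate 3, Tie1 had a log2FC of 0.69 (edgeR adjusted p = 0.069) and Cdh5 one of 0.40 (edgeR adjusted p = 0.19).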

How the results depend on the processing

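Tie1 was called in each of the 8 alternatives that kept all mice, with log2FC from 0.76 to 0.95, and in 5 of the 8 fits that left out a mouse, with log2FC from 0.69 to 0.98. Of the 10 genes, 3 were higher with scaling by total counts alone, 2 with voom, 2 with at least 10 counts in every mouse and 0 at an adjusted p under 0.01. From 0 to 2 were higher when a mouse was left out (0 without WT replicate 1, WT replicate 3 or ATGLKO replicate 3, and 2 without WT replicate 4), and 0 were lower in all of these. The filter of 10 counts in every mouse tests fewer genes and gave 1195 genes called, 746 higher and 449 lower, with 16 higher and 2 lower in the vascular lists. Total-count scaling gave 404 lower genes, and higher genes were 78.5% of calls against 63.6%. Leaving out a mouse gave from 400 to 851 lower genes, the fewest without ATGLKO replicate 2. Without the 4 libraries richest in muscle markers, chosen after seeing the data and leaving 2 mice a genotype, 1025 genes were called, 760 higher and 265 lower, with 2 lower in the vascular lists.

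Signs turned for genes without a call. Vegfa was 0.013 and Vegfb 0.034 with total-count scaling, and 0.20 and 0.073 without the muscle-rich libraries. Vegfa was 0.025 without WT replicate 1, Vegfb 0.019 without ATGLKO replicate 2, and Egfl7 -0.016 without ATGLKO replicate 3. Over the fits that left out a mouse, Vegfa ran from -0.27 to 0.025, Vegfb from -0.22 to 0.019, Egfl7 from -0.016 to 0.26, Hbb-bs from -0.54 to 0.27, Myh4 from -0.74 to 1.28 and Acta1 from -0.40 to 1.63. Hbb-bs was 0.27 without WT replicate 2, Myh4 -0.022 without WT replicate 3 and -0.74 without ATGLKO replicate 2, and Acta1 -0.40 without ATGLKO replicate 2. Of 36 other named genes, 22 kept their side of the threshold and their sign throughout and 14 changed under some alternative. The cause was not tested.

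The mice are separate animals, and the labels give no pairing by replicate number. Deviations from the genotype mean correlated by -0.087, -0.20, 0.30 and 0.24 between the mice numbered 1 to 4, and by 0.065 on average. Whether mice of a number shared a batch cannot be told from these values. With the replicate block, 1719 genes were called, 1138 higher and 581 lower, 1 of the 10 genes was higher and 0 lower, and the vascular lists held 28 higher and 4 lower genes. Depth limits the low genes: Vwf had at most 17 counts in a mouse, and 103 of the 152 other vascular genes had enough counts to be tested.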
